A study of Mus musculus with 12 samples.

Results

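Myc and its neighbour Pvt1 were followed across 6DT1 cells edited with a control guide or with 1 of 3 guides against Resf1. The pair was taken by name, Myc as ENSMUSG00000022346 and Pvt1 as ENSMUSG00000097039, and makes up 2 of the 982 genes in the deposited table. 6DT1 is a mouse mammary cancer cell line that was derived from a tumor of an MMTV-Myc mouse and is syngeneic to FVB/NJ. The 12 libraries form 4 groups of 3: the sgControl line, labelled wild type with a scramble guide, and the sg1, sg2 and sg3 lines, each labelled as a CRISPR knockout of Resf1, the gene of retroelement silencing factor 1. All 4 lines are described as grown under puromycin, and stranded total RNA was sequenced from dishes seeded in triplicate. Per the study's methods the guides were carried by a lentiviral vector with GFP, and the edited cells were sorted by GFP and grown from single cells. For the CRISPR lines those methods name no puromycin. Each knockout line is therefore 1 clone, guide and clone cannot be told apart, and the p-values below measure the spread between dishes and libraries of a line. The comparison asks whether the level of the oncogene that started the parent tumor, and of the transcript next to it, differs once Resf1 has been edited. Resf1 itself was not analysed here, so the labels were not checked on the targeted gene.

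MYC is a basic helix-loop-helix leucine zipper transcription factor that binds DNA as a dimer with MAX and drives genes of ribosome biogenesis, nucleotide synthesis and polyamine synthesis. Its mRNA and its protein are both short-lived. Pvt1 is a long noncoding RNA gene beside Myc that was found as a site of translocation and retroviral insertion in tumors and is often gained together with Myc in cancer. In the MMTV-Myc mouse, the mouse mammary tumor virus promoter drives a Myc transgene in the mammary epithelium. Reads of the transgene and of the endogenous gene both carry Myc sequence, so their shares in the values below cannot be told apart.

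Values are normalized counts: each library's estimated counts were scaled by a single size factor. Over the table they summed to between 2069298 and 2713951 per library, and the size factors read from the values were 0.859 to 1.15. When the 3 guides were averaged and set against sgControl, every gene of the table passed (982 of 982, 100%), so passing there does not set the pair apart. How the genes of the table were selected is not given in the sources used here. With every gene past that averaged contrast, the table cannot be taken as an unselected background. The adjusted p-values and shares below hold within these 982 genes only. Against sgControl, 89.2% of the table passed with sg1, while 59.7% did for sg2 and 59.9% for sg3. The direction of the calls moved with the scaling: with sg1 492 genes were called higher and 384 lower, against 353 and 420 when libraries were scaled to their table total. With sg2 the split went from 297 and 289 to 133 and 473, and with sg3 from 260 and 328 to 142 and 377. Median-of-ratios factors from genes off chromosome 15 turned the balance the other way, to 357 higher and 208 lower with sg2 and 372 and 203 with sg3. No replicate pair was a duplicate. In bulk RNA, fewer cells of a type and less RNA per cell cannot be told apart.

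Myc was lower in sg1 than in any other line. Its normalized counts were 17719, 15024 and 18849 in the sgControl libraries and 9470.2, 9364 and 9189 in the sg1 libraries. In sg2 they were 16655, 14363 and 14825. In sg3 they were 15406, 18041 and 15030.3. All 3 sg1 libraries lay below the other 9, an arrangement found for 15.4% of the genes in the table. The ranges of sgControl, sg2 and sg3 overlapped one another.

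The mean of Myc was 17197 ± 1965 (SD, n = 3) in sgControl and 9341 ± 142 (SD, n = 3) in sg1. On the log2(value + 1) scale Myc fell by 0.87 in sg1 (SE 0.08, 95% interval −1.05 to −0.70), which is 1.83-fold lower, with a limma adjusted p of 4.38e-08. This was the 79th lowest of the 982 log2 fold changes with sg1, where 39.1% of the table was called lower. Relative to the median gene of the table, which stood at 0.20 with sg1 under the deposited scaling and at −0.01 when scaled to the table total, Myc was at −1.07, a distance that by construction no scaling of whole libraries changes.

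In sg2 the mean of Myc was 15281 ± 1212 (SD, n = 3) and in sg3 16159 ± 1641 (SD, n = 3). Neither line passed the threshold against sgControl. The log2 difference was −0.17 in sg2 (95% interval −0.34 to 0.01, limma adjusted p = 0.0838) and −0.09 in sg3 (95% interval −0.26 to 0.08, limma adjusted p = 0.343). The sg2 value passed when the libraries were rescaled by median of ratios over the deposited genes (−0.21, limma adjusted p = 0.027), when scaled to the table total (−0.37, limma adjusted p = 0.00033), without sgControl replicate 2 (−0.26, limma adjusted p = 0.011) and without sg2 replicate 1 (−0.23, limma adjusted p = 0.0401). It shrank to −0.11 with median-of-ratios factors from genes off chromosome 15 (limma adjusted p = 0.238), to −0.02 with the length and GC trend removed (limma adjusted p = 0.849) and to −0.10 without sgControl replicate 3 (limma adjusted p = 0.316). The sg3 value did not pass under any alternative and turned above 0 in 3 of 24, which include removal of the length and GC trend (0.13), while it was −0.19 with the table total.

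The 3 knockout lines were not alike in Myc. The limma F test of equality among them gave an adjusted p of 1.389e-07, in a test where 75.3% of the table passed. Myc was lower in sg1 than in sg2 by a log2 difference of −0.71 (95% interval −0.88 to −0.54, limma adjusted p = 6.13e-07) and lower than in sg3 by −0.79 (95% interval −0.96 to −0.61, limma adjusted p = 1.56e-07). Of the table, 67.6% passed between sg1 and sg2 and 65.7% between sg1 and sg3. The sg3 line was not distinguished from sg2 (30.5% of the table passed), with a log2 difference of 0.08 and a 95% interval of −0.09 to 0.25 (limma adjusted p = 0.554). Ordered from high to low the lines ran sgControl, sg3, sg2 and sg1, and within that order the step down to sg1 passed the test while the steps between the other three did not.

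Pvt1, in contrast, was higher in the knockout libraries than in the control libraries. Its normalized counts were 227, 242 and 258 in sgControl and 406, 379 and 386 in sg1. In sg2 they were 283, 367 and 283. In sg3 they were 456, 267 and 286. Each of the 9 knockout libraries lay above each of the 3 control libraries, as it did for 14.8% of the genes in the table, but the margin between the highest control library and the lowest knockout library, sg3 replicate 2, was small. Every gene of the table passed with the guides averaged against sgControl, so a separation from control does not by itself set Pvt1 apart.

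The mean of Pvt1 was 242 ± 15.7 (SD, n = 3) in sgControl and 390.3 ± 14.1 (SD, n = 3) in sg1. For the sg2 line it was 311 ± 48.6 and for the sg3 line 336 ± 104 (SD, n = 3). Pvt1 rose in sg1 by a log2 difference of 0.69 (SE 0.16, 95% interval 0.36 to 1.01, limma adjusted p = 0.00067), which is 1.61-fold. With sg1 50.1% of the table was called higher. Pvt1 was also called higher in sg3, by 0.43 (95% interval 0.10 to 0.76, limma adjusted p = 0.0263), where 26.5% of the table was called higher. In sg2 the log2 difference was 0.35 with a 95% interval of 0.02 to 0.68, and it missed the threshold after adjustment (limma adjusted p = 0.0615). Scaled to the table total it was 0.15 (limma adjusted p = 0.402).

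The sg3 call rested on sg3 replicate 1, the highest of the 12 libraries in Pvt1. Without that library the log2 difference was 0.19 (limma adjusted p = 0.169), while sg2 then passed (0.35, limma adjusted p = 0.00931) and so did the differences of sg1 from sg2 (0.34, limma adjusted p = 0.0086) and from sg3 (0.50, limma adjusted p = 0.00134). The sg3 call was also lost without sgControl replicate 1 (0.38, limma adjusted p = 0.0874) and without sgControl replicate 2 (0.43, limma adjusted p = 0.0588). The call with sg2 was gained without sg3 replicate 2 (0.35, limma adjusted p = 0.0413).

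The library sg3 replicate 1 also stood apart in other ways. It had the lowest size factor of the 12 (0.859). In it the 243 longest genes exceeded the 243 shortest by 0.11 in median deviation from the sg3 mean on the log2 scale. In the other 11 libraries the same difference lay between −0.06 and 0.03. Pvt1 deviated from its group mean by 0.48 in this library. Once each library had been corrected for transcript length and GC content, Pvt1 in sg3 stood at 0.49 above sgControl (limma adjusted p = 0.0147).

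Among the 3 knockout lines Pvt1 did not pass the limma F test of equality (adjusted p = 0.136). The log2 difference was 0.34 between sg1 and sg2 (95% interval 0.01 to 0.67, limma adjusted p = 0.0667) and 0.26 between sg1 and sg3 (95% interval −0.07 to 0.58, limma adjusted p = 0.161). The sg1 and sg3 difference was 0.06 with the length and GC trend removed (limma adjusted p = 0.709). The difference between sg1 and sg2 was 0.20 with TMM factors (limma adjusted p = 0.285), 0.21 with the length and GC trend removed (limma adjusted p = 0.234) and 0.22 with median-of-ratios factors (limma adjusted p = 0.221). It passed in 5 of 24 alternatives: with the table total (0.33, limma adjusted p = 0.0498), when only these groups were fitted (0.34, limma adjusted p = 0.00946), and without sg2 replicate 2 (0.46, limma adjusted p = 0.0213), sg3 replicate 1 or sg3 replicate 2 (0.34, limma adjusted p = 0.0434). Between sg3 and sg2 it was 0.08 (95% interval −0.25 to 0.41, limma adjusted p = 0.779). In order of their means the lines ran sg1, sg3, sg2 and sgControl, and no neighbouring knockout lines in that order were distinguished with all libraries in the fit. Pvt1 among the guides passed without sg3 replicate 1 (adjusted p = 0.00247) and without sg2 replicate 2 (adjusted p = 0.0486).

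**Figure D1:**
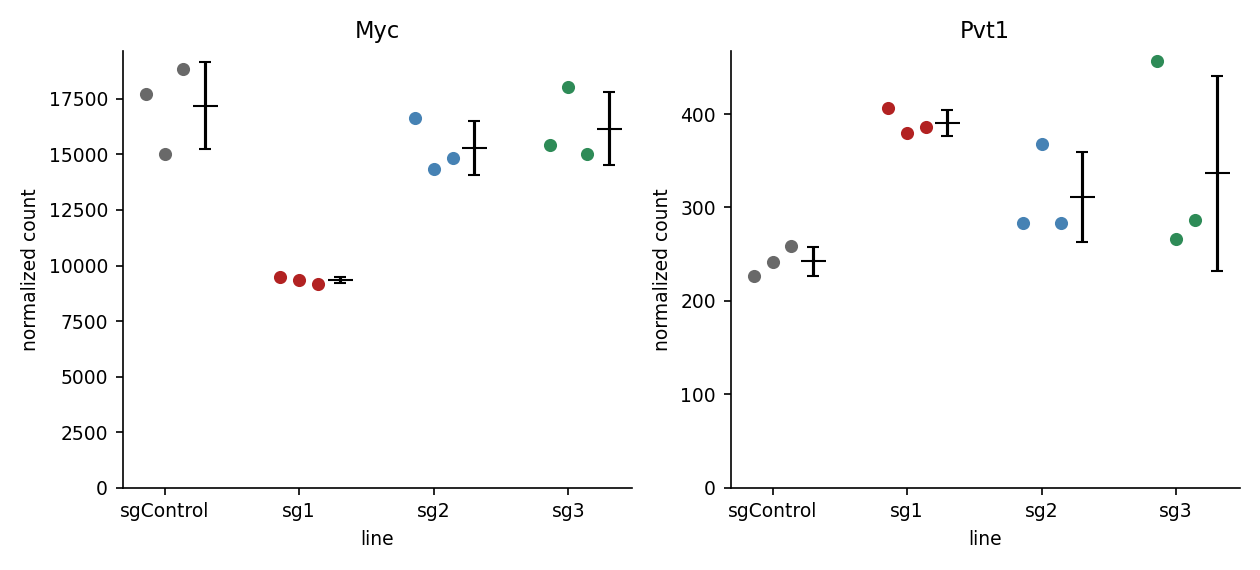
Normalized counts of Myc (left) and Pvt1 (right) in each of the 12 libraries, with 3 libraries per line as points in replicate order and the mean ± SD as a black bar beside them; both axes start at 0. The 3 sg1 libraries of Myc sit between 9189 and 9470.2 below every other library, and the 9 knockout libraries of Pvt1 sit above the 3 control libraries.

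Counting error bears differently on the 2 genes. Dividing by the step of each library gave between 231 and 392 estimated reads of Pvt1, all within 0.076 of a whole number, and a counting error of 5.05% to 6.58% of the value. The CV between replicates of Pvt1 was 6.47% for sgControl and 3.61% for sg1, which is of the order of counting error. It was 15.6% in sg2 and 31.0% in sg3, above counting error. Myc had between 8318 and 19773 estimated reads and a counting error of at most 1.10%, while its CV between replicates was 1.52% in sg1 and between 7.93% and 11.4% in the other lines. These errors cover counting only.

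Per kilobase of the longest annotated transcript (2338 bases for Myc and 3319 for Pvt1), the level of Myc was 7356 ± 841 normalized counts per kb in sgControl and 3995 ± 60.6 in sg1 (SD, n = 3). For sg2 the level was 6536 ± 518 and for sg3 6911 ± 702 per kb. The level of Pvt1 per kb was 73.1 ± 4.73 in sgControl and 118 ± 4.25 in sg1, with 93.8 ± 14.7 for sg2 and 101 ± 31.4 for sg3 (SD, n = 3). Per kb, Myc ranked 11 to 13 of the 972 genes with a length in sgControl, 11 to 14 in sg2 and 9 to 10 in sg3, but 28 to 32 in sg1. Even in sg1 it was thus among the most abundant transcripts of the table, at 0.34% to 0.41% of its sum. Pvt1 ranked 663 to 681 in sgControl, 603 to 623 in sg1, 600 to 648 for sg2 and 550 to 657 for sg3, so the ranges of the knockout lines overlapped. Per kb, Myc was 101 times as high as Pvt1 in sgControl and 34.0 times as high in sg1, with 69.7 times in sg2 and 68.2 times in sg3.

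The ratio of the 2 transcripts within a library does not depend on the size factor. Pvt1 amounted to 1.28%, 1.61% and 1.37% of Myc in the sgControl libraries. In the sg1 libraries it amounted to 4.29%, 4.05% and 4.20%. The sg2 libraries had 1.70%, 2.56% and 1.91%, and the sg3 libraries had 2.96%, 1.48% and 1.91%. The sg1 libraries lay above all others, the sg2 libraries lay above sgControl, and sg3 overlapped with both sgControl and sg2.

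The ratio was 2.95-fold higher in sg1 than in sgControl, 2.06-fold higher than in sg2 and 2.06-fold higher than in sg3. Each of these pairs reached the smallest p that 3 libraries against 3 allow, an exact two-sided permutation p of 0.1, or 0.15 after adjustment over the 6 pairs. The sg2 ratio was 1.43-fold above sgControl (exact permutation p = 0.1, adjusted 0.15) and the sg3 ratio 1.43-fold above it (exact permutation p = 0.2, adjusted 0.24). The sg3 and sg2 lines differed by a log2 ratio of 0.0018 (exact permutation p = 1.0). The sg3 mean was raised by its replicate 1, at a log2 ratio of −5.07 against −6.075 in replicate 2 and −5.71 in replicate 3. Over all 4 groups at once the between-group sum of squares gave an exact permutation p of 0.00364 (369600 assignments). Over the 3 knockout lines it gave an exact permutation p of 0.0357 (1680 assignments, smallest possible 0.00357).

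**Figure D2:**
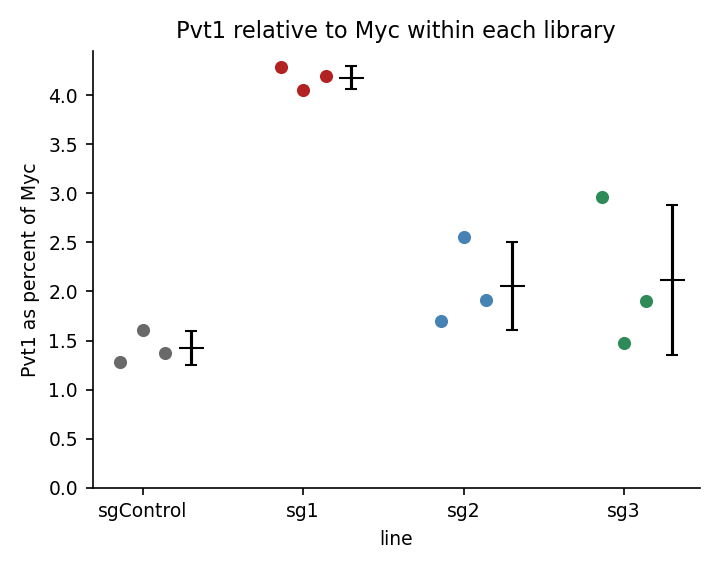
Pvt1 as a percent of Myc within each library (vertical axis, from 0), with 3 libraries per line as points and the mean ± SD as a black bar. The sg1 libraries sit between 4.05% and 4.29%, above the other 9 libraries, which sit between 1.28% and 2.96%.

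By the GENCODE annotation of the mouse genome, Myc and Pvt1 lie on the same strand of chromosome 15 with 0 annotated genes between them. No annotated gene overlaps Myc. Pvt1 overlaps 4 small noncoding genes on its own strand (Gm27913, Gm27782, Gm27718 and Gm27957) and the pseudogene H2afy3 on the other strand. None of these 5 is in the table, and how reads shared with them were counted is not given in the sources used here.

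The 10 deposited genes nearest to the pair were read next, to set it against its surroundings. In chromosome order these are Atad2, a bromodomain ATPase, Fam91a1, an adaptor of vesicle transport, Rnf139, a ubiquitin ligase of the endoplasmic reticulum, Mtss1, a membrane-bending protein that binds actin, and Washc5, a subunit of the WASH complex, before Myc. Fam49b, a regulator of RAC1, Asap1, a GTPase-activating protein for ARF, Efr3a, a membrane anchor of a lipid kinase, St3gal1, a sialyltransferase, and Ago2, the slicer of RNA interference, follow Pvt1. All but Ago2 lie within 5 Mb of the pair.

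All 10 were called higher in sg1, with log2 fold changes from 0.35 for Ago2 to 0.93 for Mtss1 and a median of 0.55. Over chromosome 15, 83% of the deposited genes were called higher in sg1 and 8.51% lower, against 50.1% and 39.1% of the table. The log2 fold change of Pvt1 (0.69) fell within the range of these neighbours and next to that of Washc5 (0.69, limma adjusted p = 4.26e-09), whereas that of Myc (−0.87) was the only one below 0. In sg2 only Mtss1 (0.24, limma adjusted p = 0.0171) and Ago2 (0.23, limma adjusted p = 0.0213) of the 10 were called, both higher (30.2% of the table was), and in sg3 only Mtss1 (0.21, limma adjusted p = 0.0284), where 26.5% of the table was called higher.

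Within single libraries, Myc stood below the median of the 9 genes within 5 Mb by a log2 difference of −1.43, −1.33 and −1.50 in sg1, each value taken relative to the sgControl mean of its gene. In sg2 the difference was −0.09, −0.25 and −0.29 and in sg3 −0.235, 0.06 and −0.30. The sgControl libraries spanned −0.17 to 0.09. Myc lay below all 9 neighbours in the 3 sg1 libraries, in sg2 replicates 2 and 3, and in sg3 replicates 1 and 3. In sg3 replicate 2 it lay below 3 of the 9 and in sg2 replicate 1 below 8. In the sgControl libraries it lay below 2, 8 and 1 of the 9, and the counts of sg2 and sg3 overlapped with these.

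Pvt1 stood above the same median by 0.17, 0.18 and 0.07 in sg1. For sg2 the differences were 0.17, 0.60 and 0.15, and for sg3 0.83, 0.12 and 0.13. The sgControl libraries spanned −0.11 to 0.04, so each knockout library lay above them on this scale too. In sg1 the rise of Pvt1 against its neighbours (0.07 to 0.18) was thus smaller than its rise against sgControl (0.69). This difference between the gene and its neighbours does not depend on the scaling of the libraries. It was not tested.

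**Figure D3:**
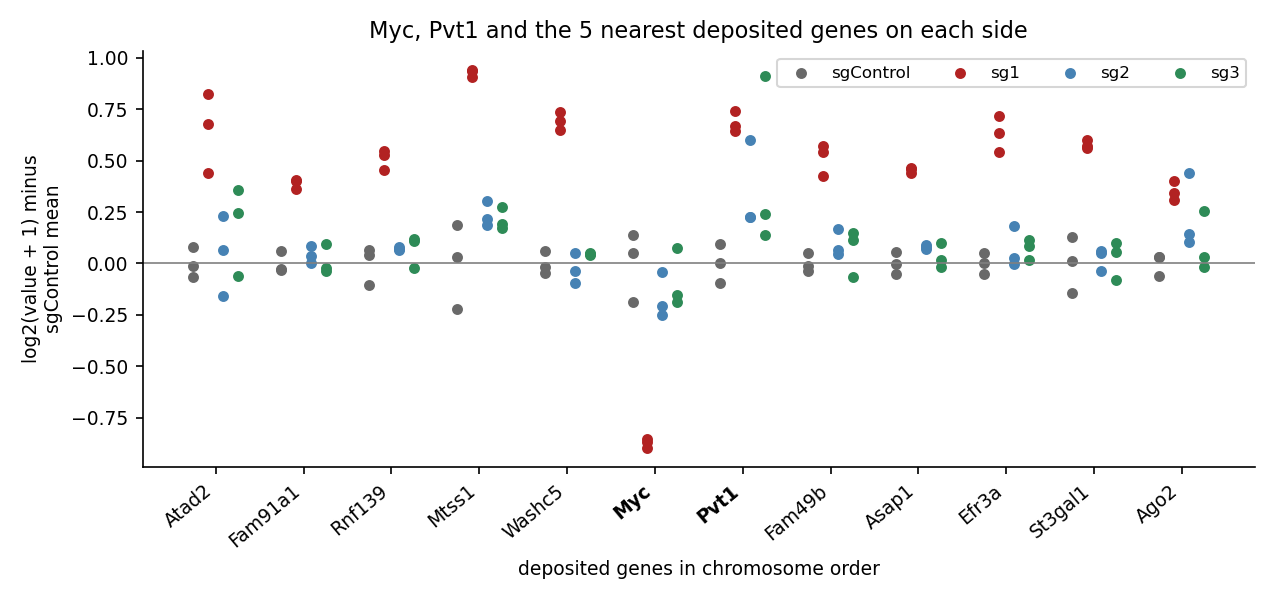
Log2(value + 1) minus the sgControl mean of the same gene (vertical axis) in each library, for Myc, Pvt1 and the 5 nearest deposited genes on each side in chromosome order (horizontal axis), colored by line. In sg1 the 10 neighbours and Pvt1 sit above 0 and Myc sits near −0.87, while in sg2 and sg3 most neighbours sit near 0 and Pvt1 sits above them.

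Over the whole chromosome the table held 94 genes, 23 before the pair and 69 after it. The 92 others had a median log2 fold change of 0.62 in sg1, where 77 were called higher and 7 lower, against a median of 0.20 over the table. In sg2 their median was 0.03 (10 higher, 19 lower) and in sg3 0.0015 (10 higher, 26 lower). Pair included, 10.6% of the chromosome was called higher and 20.2% lower with sg2, and 11.7% and 27.7% with sg3. Over the table the shares were 50.1% higher and 39.1% lower with sg1, 30.2% and 29.4% with sg2, and 26.5% and 33.4% with sg3. Myc was the third lowest of the 94 in sg1, 1.49 below the median of the chromosome, after Mapk12 (−3.64), a p38 kinase, and Gm49410 (−1.11). It was the 20th lowest in sg2 and the 30th lowest in sg3. Pvt1 was the 37th highest in sg1, 0.07 above the median of the chromosome, but the 7th highest in sg2, 0.32 above it, and the 6th highest in sg3, 0.43 above it. Reads of the Myc transgene cannot be told apart from those of the endogenous gene here either, and the site of the transgene was not analysed.

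The shift of the chromosome did not begin at its start. The first 10 deposited genes, a set chosen after the values were seen, had a median of 0.07 with sg1 (range −0.20 to 0.22), of −0.41 with sg2 and of −0.32 for the sg3 line. The 82 genes after them, without the pair, had medians of 0.64 with sg1, 0.04 with sg2 and 0.02 for the sg3 line, and 76 of the 82 were called higher in sg1, where 50.1% of the table was. Both members of the pair lie among these later genes. Of the other genes of the chromosome called lower in sg1, Gm7666 and Skp2 belong to the first 10, and Fzd6, Ccn3, Gm49410, Tst and Mapk12 lie after them. What sets the level of the chromosome in sg1 was not tested.

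**Figure D4:**
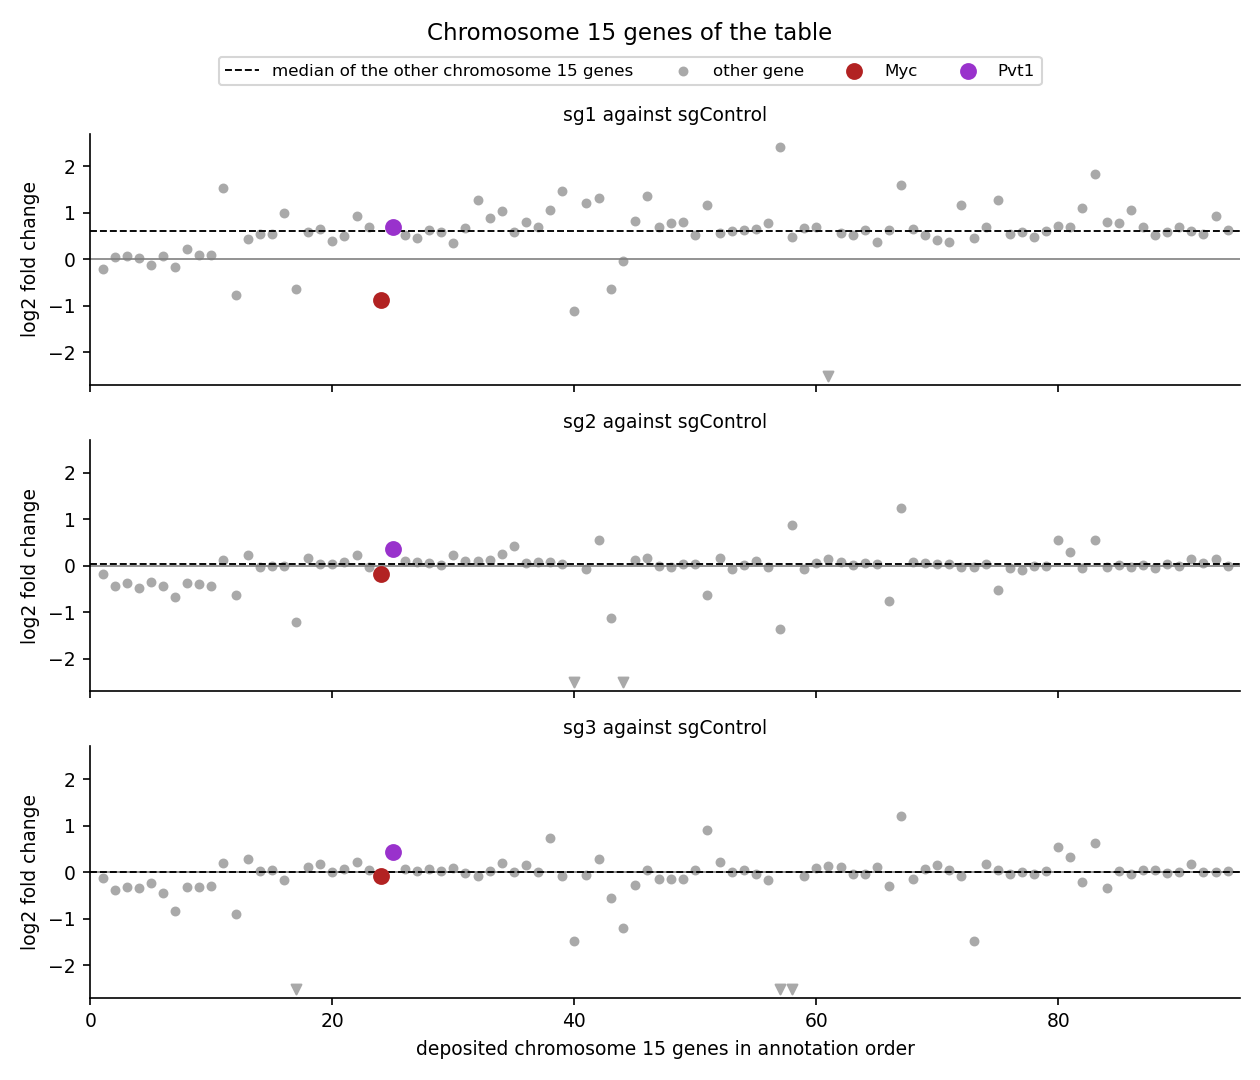
Log2 fold changes against sgControl (vertical axis) of the 94 deposited chromosome 15 genes in annotation order (horizontal axis, position in the order), with 1 panel per guide, Myc in red, Pvt1 in purple and the median of the other 92 genes as a dashed line; triangles mark genes beyond the axis. With sg1 the median is 0.62, Pvt1 sits next to it at 0.69 and Myc sits far below it at −0.87.

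The genes whose pattern over the 12 libraries was most like that of Myc were, by Pearson r of log2(value + 1), Cul7 (0.976), a scaffold of a ubiquitin ligase, Sdad1 (0.969), a ribosome biogenesis protein, Naf1 (0.966), an assembly factor of H/ACA ribonucleoproteins, Ydjc (0.961) and BC055324 (0.961). They share library, scaling and line with Myc, and the 12 libraries come from 4 lines. Myc and each of these genes were lowest in sg1. Cul7 fell from 1670 ± 73.2 in sgControl to 950.2 ± 91.4 in sg1 (SD, n = 3), a log2 difference of −0.82 (limma adjusted p = 3.33e-07). The most opposite genes were Dhrs9 (−0.987), a retinol dehydrogenase, Anxa8 (−0.982), an annexin, and Rnf139 (−0.979), which is 1 of the near neighbours named above.

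For Pvt1 the most alike were Tnrc6b (0.896), a partner of Argonaute on chromosome 15, Exoc6b (0.885), an exocyst subunit, Lrp1 (0.873), an endocytic receptor, Macf1 (0.864), a cytoskeletal crosslinker, and Dclk1 (0.857), a doublecortin-like kinase. The most opposite were the pseudogene Gm9825 (−0.930), Prmt1 (−0.915), an arginine methyltransferase, and Srsf2 (−0.892), a splicing factor.

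Of the MYC dimerization network and its cofactors 2 of 26 listed genes were in the table, and MAX and the MXD family were not analysed here. Both, Wdr5, a subunit of histone methyltransferase complexes that binds MYC, and Kat2a, a histone acetyltransferase, were called lower with all 3 guides, as were 11.8% of the genes in the table. The log2 fold changes of Wdr5 were −0.34 (sg1), −0.13 (sg2) and −0.29 (sg3), and those of Kat2a, in the same order, −0.22, −0.17 and −0.24. The 2 calls in sg2 were kept in 11 of 24 alternatives, and none was left with median-of-ratios factors from genes off chromosome 15, without trend and robust estimates, after the length and GC correction, or without sgControl replicate 1, sgControl replicate 2 or sg2 replicate 3. 1 call was left when only the groups compared were fitted and without any 1 of the sg1 libraries, sg2 replicate 1 or sg3 replicate 3. Of the 2 calls in sg3, 0 were left after the length and GC correction and 1 when the replicate block was added to it.

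Of the 24 listed genes of MYC protein turnover 1 was in the table. Skp2, the F-box protein of a ubiquitin ligase that acts on MYC, was lower with all 3 guides, with log2 fold changes of −0.13 (sg1, limma adjusted p = 0.0304), −0.35 (sg2) and −0.23 (sg3). It is 1 of the first 10 deposited genes of chromosome 15 described above, of which 10 were called lower in sg2 (median −0.41, against 29.4% of the table) and 9 in sg3 (median −0.32, against 33.4% of the table). The sg1 call was lost with median-of-ratios factors from genes off chromosome 15, and without each of sgControl replicates 1 and 2 and sg1 replicates 1 and 2. Of the 25 listed regulators that act at or upstream of the Myc promoter 1 was in the table. Notch1, a receptor whose cleaved form activates Myc transcription in some tissues, was higher with all 3 guides, as were 14.1% of the genes in the table. Its normalized counts were 1233, 1029 and 1277 in sgControl and 1493, 1593 and 1541 in sg1. In sg2 they were 1482, 1501 and 1534, and in sg3 1419, 1614 and 1344. The log2 fold changes of Notch1 were 0.39, 0.36 and 0.31, and these 3 calls were lost when the libraries were scaled to the table total.

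Genes that MYC is known to induce were next. The table held 16 of 74 listed genes, each of them called lower in sg1, where 39.1% of the table was. Their median log2 fold change in sg1 was −0.40, against 0.20 over the table. In sg2 6 of the 16 were called lower, where 29.4% of the table was, with a median of −0.16 against −0.02 over the table. In sg3 9 of the 16 were called lower, where 33.4% of the table was, with a median of −0.18 against −0.03. No listed gene was called higher with any guide under the deposited scaling. The sg1 value was the lowest of the 3 guides for 15 of the 16, against 34.9% of the table, and 13 of the 16 differed among the guides, against 75.3% of the table. Listed genes absent from the table were not analysed, and every gene of the table passed with the guides averaged. The 16 can thus not be taken as an unselected sample of the list, and these counts are no test of it.

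The count in sg1 stayed between 15 and 16 under every alternative, but those in sg2 and sg3 did not hold. In sg2 it was 0 after removal of the length and GC trend (with 1 gene then higher), 2 with median-of-ratios factors from genes off chromosome 15, 14 with median-of-ratios factors from all deposited genes, 14 with the replicate block and 16 when scaled to the table total. In sg3 it was 1 after removal of the length and GC trend (with 3 genes then higher) and 1 with factors from genes off chromosome 15, but 13 with the replicate block and 13 when scaled to the table total. With TMM factors, and without trend and robust estimates, it was 6. Leaving out 1 library also moved these counts, to between 1 (without sgControl replicate 1 or sg2 replicate 3) and 12 (without sgControl replicate 3) in sg2, with 2 without sgControl replicate 2 and 3 without sg2 replicate 1. In sg3 the count was 13 without sg3 replicate 2, 12 without sgControl replicate 3, 2 without sg3 replicate 1, 3 without sgControl replicate 2 and 4 without sgControl replicate 1 or sg3 replicate 3.

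The largest falls of the list in sg1 were those of the nucleoside transporter Slc29a2 (−0.66) and the folate carrier Slc19a1 (−0.56). Polr1b, a large subunit of RNA polymerase I, had normalized counts of 1631, 1695 and 1464 in sgControl and 1078, 1237 and 1063 in sg1. Its log2 fold change was −0.50 in sg1 (limma adjusted p = 2.63e-05). The groups did not overlap, as for 39.7% of the table in that direction, and Polr1b was also lower in sg2 (−0.21) and, just at the threshold, in sg3 (−0.19, limma adjusted p = 0.04998). Srm, which makes spermidine, had normalized counts of 3828, 4161 and 3430.0 in sgControl and 2656, 2999 and 2675 in sg1, a log2 difference of −0.45 (limma adjusted p = 1.70e-05). In sg2 Srm did not pass (−0.10, limma adjusted p = 0.231), and in sg3 it was called lower (−0.19, limma adjusted p = 0.0283).

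The other nucleolar and ribosome biogenesis genes of the list fell in sg1 by similar amounts. These were Nolc1 (−0.41), Nop16 (−0.40), Tcof1 (−0.40), Nop2 (−0.35) and Mybbp1a (−0.35). The enzymes of nucleotide and one-carbon metabolism stood at −0.48 for Dctpp1, −0.36 for Cad, which starts pyrimidine synthesis, and −0.35 for Shmt2, while the uracil glycosylase Ung stood at −0.41. The import receptor Ipo4 (−0.33), the prohibitin Phb (−0.28) and the tRNA synthetase subunit Farsa (−0.18) fell least. Farsa, Nop16, Phb, Polr1b and Tcof1 were called lower with all 3 guides, that is 5 of the 16 against 11.8% of the table. This count did not hold either, since the calls lower in sg2 that it needs ranged from 0 to 16 over the alternatives.

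Of 16 listed genes that MYC is known to repress 3 were in the table, and they did not move together. The integrin subunit Itgb1 rose in sg1 (0.36, limma adjusted p = 4.57e-06), and its values in sg2 (0.10) and sg3 (0.09) did not pass. The growth arrest gene Gas1 rose in sg1 (0.67, limma adjusted p = 0.00178) and fell with sg2 (−1.87) and sg3 (−0.47). Gadd45b, a stress-response gene, stood at 0.08 in sg1 (limma adjusted p = 0.621) and fell with sg2 (−0.56) and sg3 (−0.999). With 1 library left out, 1 of the 2 falls in sg3 was lost without sgControl replicate 1 or 3 and without sg3 replicate 1 or 3. Over all 24 alternatives the 2 falls were kept in 17 for sg3 and in 22 for sg2, and 1 was left otherwise. The 2 rises in sg1 were kept in 23 of 24. None of the genes was called higher in sg2 in 22 of 24 and in sg3 in 19 of 24, and 1 was otherwise. In sg1 2 of the 3 were thus called higher, where 50.1% of the table was.

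**Figure D5:**
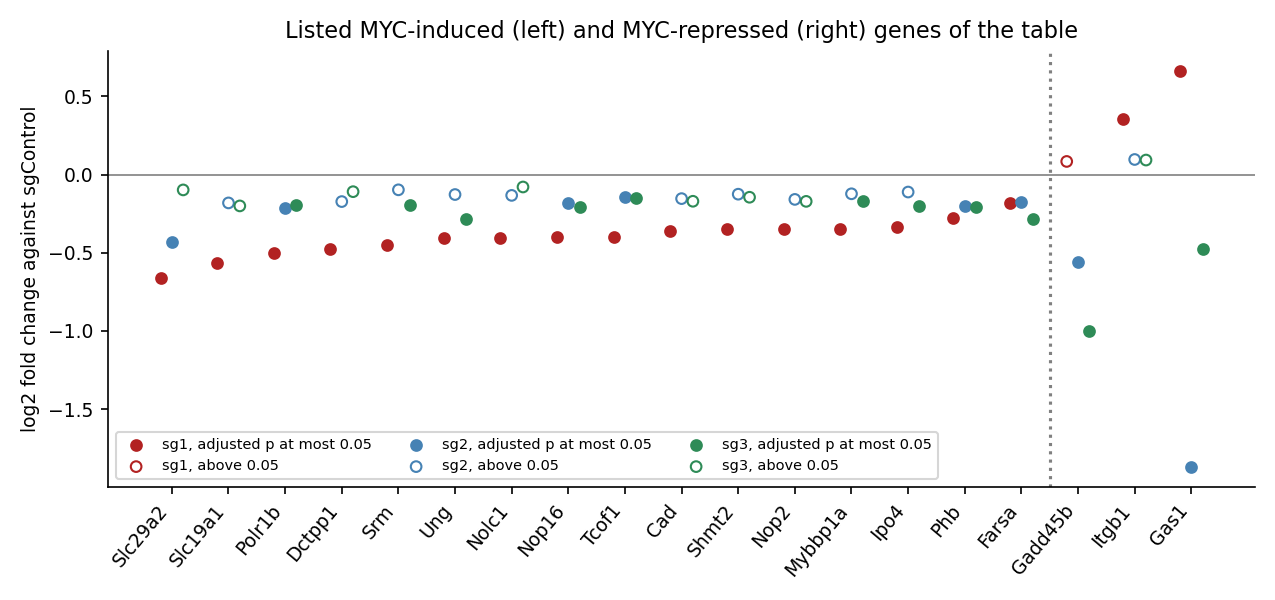
Log2 fold changes against sgControl (vertical axis) of the 16 listed MYC-induced genes (left of the dotted line) and the 3 listed MYC-repressed genes (right) in sg1, sg2 and sg3, with filled points for a limma adjusted p of at most 0.05 and open points otherwise. The induced genes sit between −0.66 and −0.18 in sg1, lowest of the 3 lines for 15 of 16.

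Levels of cell type markers were read in the same libraries. Of 16 listed markers of mammary epithelium, the labelled tissue, 4 were in the table (Krt8, Krt18, Krt19 and Cgn) and none was at 0 in a group mean. Their summed normalized counts ranged from 12354 to 12825 in sgControl and from 23027 to 25325 in sg1. For sg2 the range was 12025 to 12354 and for sg3 it was 9465 to 10701. Most of the sum came from Krt8 and Krt18, which lie on chromosome 15 and were called higher in sg1 (1.10 and 0.80) and lower in sg3 (−0.22 and −0.33). The 2 others, which lie elsewhere, were also called higher in sg1, Krt19 by 0.33 and Cgn by 1.16. They were called lower in sg2 (−0.29 and −0.96) and in sg3 (−1.44 and −3.40). Of the table, 50.1% was called higher in sg1, 29.4% lower in sg2 and 33.4% lower in sg3. Of 12 listed mesenchymal markers 2 were in the table (Fn1 and Zeb1), summing to between 2599 and 2737 in sgControl and between 2857 and 3028 in sg1. Their sums ranged from 2775 to 3141 in sg2 and from 3281 to 3348 in sg3. In sg1 neither passed (Fn1 0.17, limma adjusted p = 0.0524, and Zeb1 0.13, limma adjusted p = 0.0614). Zeb1 was called higher in sg2 (0.22, limma adjusted p = 0.0102) and in sg3 (0.17, limma adjusted p = 0.0313), and Fn1 in sg3 (0.65, limma adjusted p = 2.27e-06). The shares of the table called higher were 30.2% in sg2 and 26.5% in sg3. Of 6 listed leukocyte markers Cd68, a lysosomal protein, was in the table, with 102 to 154 in sgControl against 283 to 327 in sg1. Its range was 154 to 169 for sg2 and 138 to 159 for sg3, and it was called higher in sg1 (1.19, limma adjusted p = 5.04e-07) but not in sg2 (limma adjusted p = 0.0875) or sg3 (limma adjusted p = 0.326). Of 3 listed endothelial markers 0 were in the table. The part of these differences in the values of Myc and Pvt1 was not tested.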

How the data were processed

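The authors deposited a normalized signal, in which the estimated counts of a library were scaled by a single size factor. The values are fractional and were not treated as counts. According to the submitters' processing notes the authors used Partek, STAR 2.7.8a and DESeq2, and the study states median ratio normalization. Which mouse build, annotation and counting method were used is not given in the sources used here. A size factor moves all genes of a library together. Depth beyond the 982 deposited genes is unknown.

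Log2(value + 1) of all 982 genes and 12 libraries was fitted with limma 3.58.1 (R 4.3.3) using a trend and robust estimates, without a filter. The tests were two-sided, with Benjamini-Hochberg adjustment over the 982 genes and a threshold of 0.05. Fold changes on this scale understate the change of low genes. The fit was tested on simulated data. The ratio of Pvt1 to Myc was compared by exact permutation over libraries. Symbols, order and lengths came from GENCODE M21 (GRCm38), which matched 972 genes. Coordinates are not printed, because the authors' build may be another.

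The pair, the gene lists and the tests were chosen with earlier results of these data known. Named genes are the pair, the 5 nearest deposited genes on each side, deposited list members, and the 5 most alike and 3 most opposite genes by Pearson r. Any other gene was picked with its values in view. Alternatives were 4 other scalings, other pseudocounts, a filter, other variance models, a replicate block, removal of length and GC trends, and leaving out each library. For sgControl with sg1 (r 0.199 to 0.238) and with sg2 (r 0.122 to 0.164) the deviations of same-numbered libraries correlated over 0.1 in 3 of 3 pairs, and with sg3 in 0 of 3. The pairing comes from these correlations alone.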

Additional observations from a re-analysis of the deposited data

Results flagged for a closer look

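Myc differed among the 3 knockout lines, which carry guides against the same gene (limma F test, adjusted p = 1.389e-07). It was 9341 ± 142 in sg1, 15281 ± 1212 in sg2 and 16159 ± 1641 in sg3 (SD, n = 3), and 75.3% of the table differed among the lines.

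The ratio of Pvt1 to Myc also differed among the knockout lines (exact permutation p = 0.0357), at 4.18% ± 0.121 in sg1, 2.06% ± 0.447 in sg2 and 2.12% ± 0.764 in sg3 (SD, n = 3).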

How the results depend on the processing

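Of 396 alternative values of Myc, Pvt1 and their ratio over 24 settings, 370 kept their direction and their side of the threshold. The fall of Myc in sg1 (−1.09 to −0.80) and the rise of Pvt1 in sg1 (0.47 to 0.73) kept theirs in all 24. Some of the 24 settings, such as leaving out an sg2 or sg3 library, leave these estimates unchanged and move only their spread. The log2 ratio of sg1 over sgControl, which no scaling changes, ranged from 1.49 to 1.65 over 14 alternatives, and the exact permutation p over the 4 groups from 0.0026 to 0.0181. The replicate block changed no call of Myc or Pvt1 (Myc in sg1 −0.87, limma adjusted p = 2.71e-06).

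The exceptions were these, with those that leave out a library given as ranges. Myc in sg2 passed with median-of-ratios factors (−0.21) and the table total (−0.37). Myc in sg3 turned above 0 with median-of-ratios factors from genes off chromosome 15 (0.0020) and with the length and GC trend removed, without or with the replicate block (0.13). Pvt1 in sg2 passed with factors from genes off chromosome 15 (0.41) and when only the groups compared were fitted (0.35), and was 0.15 with the table total. Pvt1 in sg3 no longer passed with the table total (0.33) or without trend and robust estimates (0.43). Pvt1 in sg1 minus sg2 passed with the table total (0.33) and when only the groups compared were fitted (0.34), and was 0.20 with TMM factors. The cause was not tested.

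With 1 library left out at a time, Myc ranged from −0.26 to −0.10 in sg2, from −0.18 (without sgControl replicate 2) to −0.02 (without sgControl replicate 3) in sg3, where no call changed, and from −0.0031 to 0.14 for sg3 minus sg2. Pvt1 ranged from 0.23 to 0.41 in sg2, from 0.19 to 0.58 in sg3, from −0.16 to 0.23 for sg3 minus sg2, from 0.27 to 0.46 for sg1 minus sg2, and from 0.11 to 0.50 for sg1 minus sg3, which also fell to 0.06 with the length and GC trend removed, 0.09 with TMM factors and 0.145 with the table total. The adjusted p of Pvt1 among the knockout lines ranged from 0.00247 to 0.316. Calls were decided by sgControl replicates 1 and 2, sg2 replicates 1 and 2, and sg3 replicates 1 and 2, as given above.
Depth beyond the table is unknown, and Pvt1, at 231 to 392 estimated reads, is limited by counting error more than Myc.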
